A study of Mus musculus with 12 samples.

Results

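The liver response to IIAEK, a pentapeptide named for its 5 amino acids and described in the labels as lowering cholesterol, was measured in mice that lack Akp3. The comparison holds 6 of the 12 arrays of the series, chosen by sample title: 3 livers of IAP knockout mice given IIAEK and 3 livers of IAP knockout mice given the control solution without it, each hybridised to 1 one-colour Agilent expression array. All 6 mice were male, 7 weeks old and Akp3-/-, and their strain is not given in the labels. The vehicle was carboxymethylcellulose sodium salt at 5 g/L, by mouth once a day, and the treated mice received 600 mg/kg of IIAEK per day in it. Treatment lasted 14 days (1 label field gives weeks, whereas the titles, the treatment protocol and the design text give days), and livers were taken after a fast of 8 h. The other 6 arrays are livers of wild-type mice, 3 given vehicle and 3 given IIAEK by the same protocol. They served for the estimate of the spread and for the difference between genotypes. The labels state 3 mice per group and say nothing of litters or cages.

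Akp3 encodes intestinal alkaline phosphatase (IAP), which sits on the brush border and removes phosphate groups from dietary and bacterial molecules in the gut lumen. The liver answers feeding and fasting through insulin, glucagon, glucocorticoids and growth hormone. Fasting raises the secreted binding protein Igfbp1 and the enzymes of glucose release, and feeding raises the enzymes of fatty acid and sterol synthesis. The comparison asks what IIAEK does to liver expression where IAP is missing.

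Processed signals were put on a log2 scale with each array's 75th percentile set to 0, so that 1 unit is a doubling. Errors beside means are SD (n = 3 mice per group), and errors beside changes are SE from limma, fitted to all 12 arrays with 1 mean per group. Adjusted p is Benjamini-Hochberg over all 26397 genes tested. The groups are said not to overlap where all 3 IIAEK arrays lay above, or all below, all 3 vehicle arrays. On the 6 arrays the 75th percentile of the signal lay between 558.0 and 758.5, and 58.7% to 61.0% of probes were well above background. Both Akp3 probes and the Alpi and Alppl2 probes (the genes of other intestinal and germ-cell type alkaline phosphatases) were above background on 0 of the 6 arrays, so liver RNA gave no reading of the targeted gene. Of 14 hepatocyte markers, 14 were above background on all 6.

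No gene passed the threshold of 0.05. The limma fit called 0 of 26397 genes (0%), with 1058 genes at an unadjusted p under 0.05 and higher with IIAEK (4.01% of the genes tested) and 648 lower (2.45%). The groups did not overlap for 2515 genes that were higher (9.53%) and 1560 that were lower (5.91%). Of all genes tested, 56.1% had a fitted change above 0 and 43.9% below. Since nothing passed, each gene below is described by its values. Adjusted p of the knockout change was 0.656 for each of them in limma, unless another value is given. All p-values measure the spread between these mice.

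The vehicle group was not uniform, which decides how the changes below can be read. On the first principal component of the 6 arrays, which carried 67.6% of their variance, vehicle 1 and 3 stood at 77.0 and 73.2. Vehicle 2 stood at -40.8, beside the IIAEK arrays at -34.6, -18.2 and -56.6. Vehicle 2 correlated at r = 0.992 to 0.993 with the IIAEK arrays (across genes, which do not count as replicates) and at 0.970 and 0.971 with the other vehicle arrays. Vehicle 1 and 3 also had the highest 75th percentile signals of the 12 arrays (747.6 and 758.5). They lay on different slides, since replicate 1 of every group was on slide 1 and replicates 2 and 3 on slide 2. Changes of genes that vehicle 2 shares with the IIAEK arrays thus rest on 2 mice, and the change against vehicle 2 alone is given for the genes and lists that this concerns most (chosen after the data were seen). Array weights, which let limma weight the arrays by their scatter, called 871 genes, 508 higher and 363 lower.

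Igfbp1 and Igfbp2, genes of binding proteins of insulin-like growth factors, were lower in IIAEK mice, while Igfbp5, described below, was higher. Igfbp1, which is secreted by the liver and binds IGF-I, stood at log2 8.32, 5.93 and 7.31 in vehicle 1 to 3 and at 4.54, 4.67 and 3.65 in IIAEK 1 to 3. Every IIAEK array lay below every vehicle array. The mean went from 7.19 ± 1.20 to 4.28 ± 0.55 (SD, n = 3 each), a signal 7.48-fold lower (log2 change -2.90, SE 0.59). Against vehicle 2 alone the change was -1.64. In wild-type liver Igfbp1 was also lower with IIAEK without overlap (change -1.81, SE 0.59). Igfbp2, a second secreted binding protein of the liver, stood at 7.02, 6.21 and 6.63 in vehicle and at 5.39, 5.71 and 5.47 in IIAEK mice. These groups did not overlap either, with a change of -1.10 (SE 0.21) and of -0.69 against vehicle 2. In wild-type liver the change of Igfbp2 was -0.25 (SE 0.21).

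The stress-response genes Gadd45b and Gadd45g were lower as well. Their proteins are small partners of stress kinases and cell cycle regulators that are induced by stress and hormonal signals. Gadd45b stood at 0.80, -0.27 and 0.54 in vehicle and at -1.07, -1.24 and -1.43 in IIAEK mice (change -1.61, SE 0.31). Gadd45g stood at 4.83, 4.95 and 4.23 against 3.80, 3.62 and 3.46 (change -1.04, SE 0.23). In both genes all IIAEK arrays lay below all vehicle arrays. Against vehicle 2 alone the change of Gadd45b was smaller (-0.98) and that of Gadd45g larger (-1.32) than against the group.

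**Figure D1:**
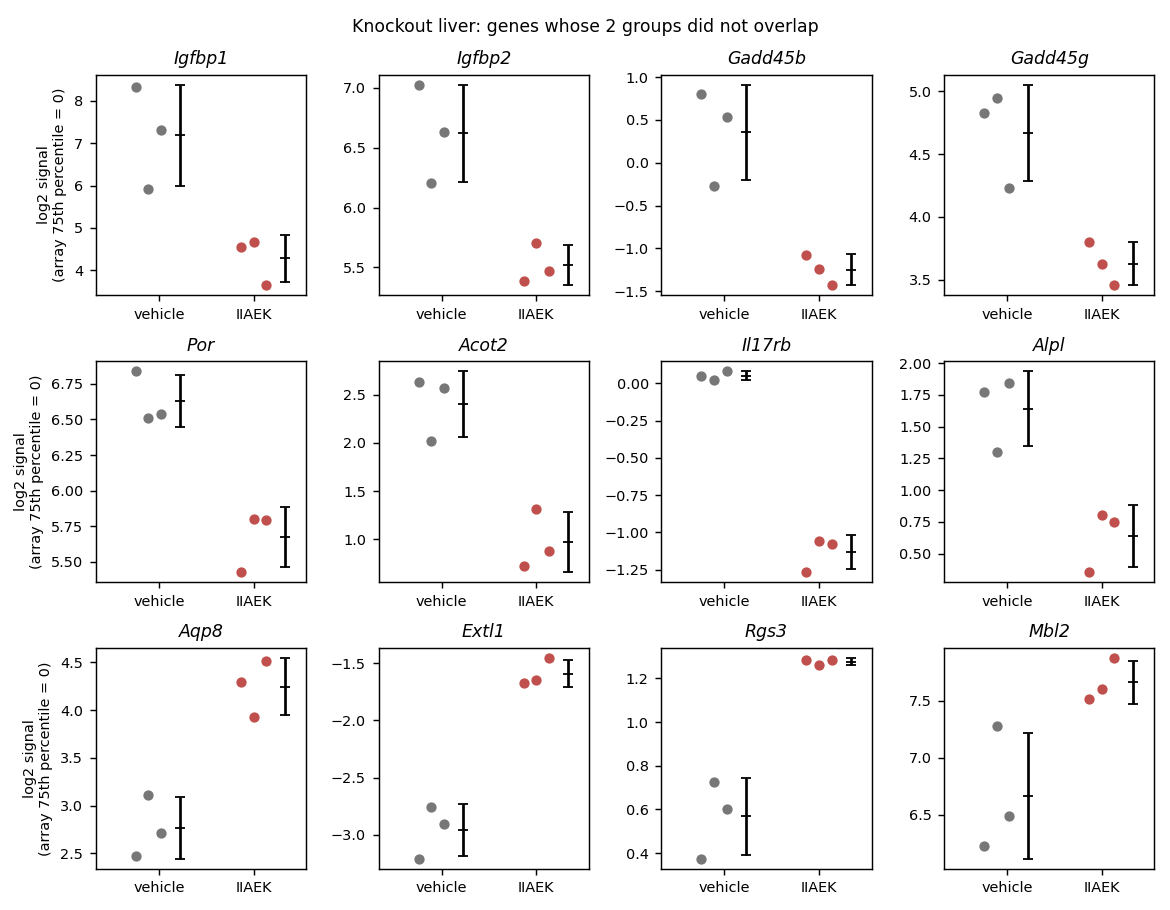
The log2 signal of 12 genes (y axis, relative to the array's 75th percentile, a separate scale per panel) is plotted for the 3 vehicle mice (grey) and the 3 IIAEK mice (red) of the knockout, with bars for mean and SD. No panel has an IIAEK mouse within the range of the vehicle mice: Igfbp1 lies between 5.93 and 8.32 in vehicle and between 3.65 and 4.67 in IIAEK mice, and Aqp8 between 2.47 and 3.11 against 3.93 and 4.51.

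Promoter sequences are shown for 5 of the 20 genes with the smallest p (10 per direction) among those with an established symbol that were well above background on all 6 arrays. The 5 are those that hold the element by which Igfbp1 answers insulin or the letters CACGTG, an E-box bound by clock and carbohydrate-response factors among others. The windows run from 250 bases before to 50 after the annotated start, 5′ to 3′ on the gene's strand, and come from RefSeq (GRCm38.p6). They cover Igfbp1 at chr11:7197537-7197836, Igfbp2 at chr1:72824230-72824529, Gadd45b at chr10:80929841-80930140, Gadd45g at chr13:51846425-51846724 and Aqp8 at chr7:123462044-123462343, all on the plus strand. Capitals mark the insulin response element in Igfbp1, matched as CAAAACAA followed after 4 bases by ATTTTG, and CACGTG in the others.
Igfbp1: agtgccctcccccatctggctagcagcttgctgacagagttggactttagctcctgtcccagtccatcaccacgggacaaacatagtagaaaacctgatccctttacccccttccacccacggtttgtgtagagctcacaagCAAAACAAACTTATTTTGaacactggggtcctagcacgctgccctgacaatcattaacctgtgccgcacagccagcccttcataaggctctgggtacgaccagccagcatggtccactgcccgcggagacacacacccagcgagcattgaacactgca
Igfbp2: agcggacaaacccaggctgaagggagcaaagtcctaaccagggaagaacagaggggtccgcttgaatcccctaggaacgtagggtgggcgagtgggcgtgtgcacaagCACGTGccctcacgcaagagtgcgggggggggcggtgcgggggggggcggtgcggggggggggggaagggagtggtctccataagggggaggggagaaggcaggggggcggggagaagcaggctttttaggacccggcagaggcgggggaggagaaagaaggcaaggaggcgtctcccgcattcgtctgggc
Gadd45b: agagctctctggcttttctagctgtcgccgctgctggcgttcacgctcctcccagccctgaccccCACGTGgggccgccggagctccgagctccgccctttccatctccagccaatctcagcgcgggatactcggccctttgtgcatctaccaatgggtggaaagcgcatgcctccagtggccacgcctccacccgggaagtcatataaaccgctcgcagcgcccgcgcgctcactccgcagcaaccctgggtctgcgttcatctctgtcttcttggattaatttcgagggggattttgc
Gadd45g: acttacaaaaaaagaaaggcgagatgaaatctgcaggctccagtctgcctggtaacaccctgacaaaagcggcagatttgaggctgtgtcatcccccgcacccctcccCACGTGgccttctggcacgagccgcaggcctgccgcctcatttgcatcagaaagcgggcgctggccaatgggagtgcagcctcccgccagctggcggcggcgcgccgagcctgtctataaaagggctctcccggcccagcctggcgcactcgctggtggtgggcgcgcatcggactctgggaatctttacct
Aqp8: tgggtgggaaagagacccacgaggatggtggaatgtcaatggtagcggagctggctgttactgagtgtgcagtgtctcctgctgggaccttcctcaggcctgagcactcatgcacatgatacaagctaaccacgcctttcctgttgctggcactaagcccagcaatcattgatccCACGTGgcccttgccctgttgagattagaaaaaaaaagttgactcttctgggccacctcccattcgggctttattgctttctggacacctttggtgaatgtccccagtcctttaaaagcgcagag
The element of Igfbp1 starts 108 bases before the annotated start and was found in 1 of 32851 promoter windows of the table (0.00304%), searched on both strands. The letters searched were those of the Igfbp1 element itself, so its rarity follows from that choice and says nothing of the response. Its first part alone, CAAAACAA, was found in 825 windows (2.51%), among the 20 genes in those of Igfbp1 and Rhox5. CACGTG, which reads the same on both strands, was found in 2349 windows (7.15%). Of the 20 genes, 19 had a window, and 4 of them held it (3 lower and 1 higher with IIAEK). Igfbp2 has a second annotated start whose window holds no such match. The shares count windows (32851, of 27025 symbols), whereas a gene was counted where any of its windows matched. The counts of genes and of windows are thus in unlike units. A match is a run of letters and was not tested for binding.

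Fasting genes did not move as a group. Of 20 genes of gluconeogenesis and fasting, all tested, 8 were higher and 12 lower, with a median log2 change of -0.10 against 0.05 for all genes tested. 3 were lower at an unadjusted p under 0.05 (2.45% of all genes), and 2 did not overlap between the groups (5.91% of all genes). The lowest member was Igfbp1, which this list shares with the IGF axis. Tat, tyrosine aminotransferase, a glucocorticoid-induced enzyme of amino acid breakdown, stood at 7.67, 6.62 and 6.24 against 6.06, 6.0 and 6.09 (change -0.80, SE 0.33). Pdk4, the kinase that shuts pyruvate dehydrogenase in fasting, overlapped at 2.46, 2.20 and 1.14 against 1.20, 1.12 and 0.18 (change -1.10, SE 0.49). Ppargc1a, a coactivator of gluconeogenic genes, was high in vehicle 1 only (2.76, 1.16 and 0.61 against 0.55, 0.65 and 0.55).

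The remaining IGF axis went both ways. Of its 16 tested members 9 were higher and 7 lower (median 0.09), and 5 higher (9.53% of all genes) and 3 lower members (5.91%) did not overlap between groups. Igfals, the acid-labile subunit that holds IGF-I in the circulating complex, stood at -2.23, -0.50 and -2.38 in vehicle and at -0.40, -0.47 and 0.01 in IIAEK mice, so vehicle 2 lay next to the IIAEK arrays (change 1.41, SE 0.62, and 0.21 against vehicle 2). Igfbp5 stood at -2.35, -2.39 and -2.34 against -1.91, -1.27 and -0.65 (change 1.08, SE 0.45). Pappa, a protease that cleaves IGF-binding proteins, was well above background on 3 of 3 vehicle and 0 of 3 IIAEK arrays and at least 2.88-fold lower with IIAEK. Such lower bounds set the dim group at the lowest signal called above background on each array, or at its own where that is higher.

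Growth hormone acts through STAT5, and 12 of 17 tested genes of its signalling were higher with IIAEK and 5 lower (median 0.35). The median was 0.34 against vehicle 1 and 3 but 0.05 against vehicle 2. Of the higher genes, 4 had an unadjusted p under 0.05 (4.01% of all genes) and 3 did not overlap (9.53% of all genes). Among the lower genes 1 had an unadjusted p under 0.05, and the lowest change was -2.21. Cish, a STAT5-induced feedback inhibitor, stood at 1.22, 0.73 and -0.13 in vehicle and at 1.53, 1.56 and 1.75 in IIAEK mice. Onecut1, a liver transcription factor, stood at 0.85, 1.19 and 0.36 against 1.33, 1.59 and 2.20. Both kept all IIAEK arrays above all vehicle arrays, by 1.01 (SE 0.44) and 0.90 (SE 0.31). Ghr, the receptor itself, overlapped (3.19, 4.86 and 3.38 against 4.92, 4.73 and 5.34), with a change of 1.19 (SE 0.53) that was 0.14 against vehicle 2.

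Male-biased liver genes, whose level depends on the male pattern of growth hormone pulses, were higher in 25 of 25 tested members, with a median of 1.20. That value rests on vehicle 1 and 3. The list stood at -1.38 and -1.36 (median of the members relative to their mean over the 6 arrays) in vehicle 1 and 3, at 1.03 in vehicle 2 and at 0.48 to 0.81 in IIAEK mice. Against vehicle 2 alone its median was -0.37. With IIAEK in wild-type liver the median of this list was 1.04. Hsd3b5, a male-specific steroid enzyme, stood at -2.86, 4.08 and -4.78 in vehicle and at 1.86, 2.53 and 4.17 in IIAEK mice, and Slco1a1, a male-biased uptake transporter, at -3.14, 2.99 and -4.26 against 1.71, 1.87 and 2.96. In both, vehicle 2 was above at least 2 of the IIAEK mice, and the changes of 4.04 (SE 2.30) and 3.65 (SE 2.08) turned to -1.23 and -0.81 against vehicle 2. Only Selenbp2 of this list did not overlap (5.73, 5.99 and 5.37 against 6.01, 6.22 and 6.15).

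**Figure D2:**
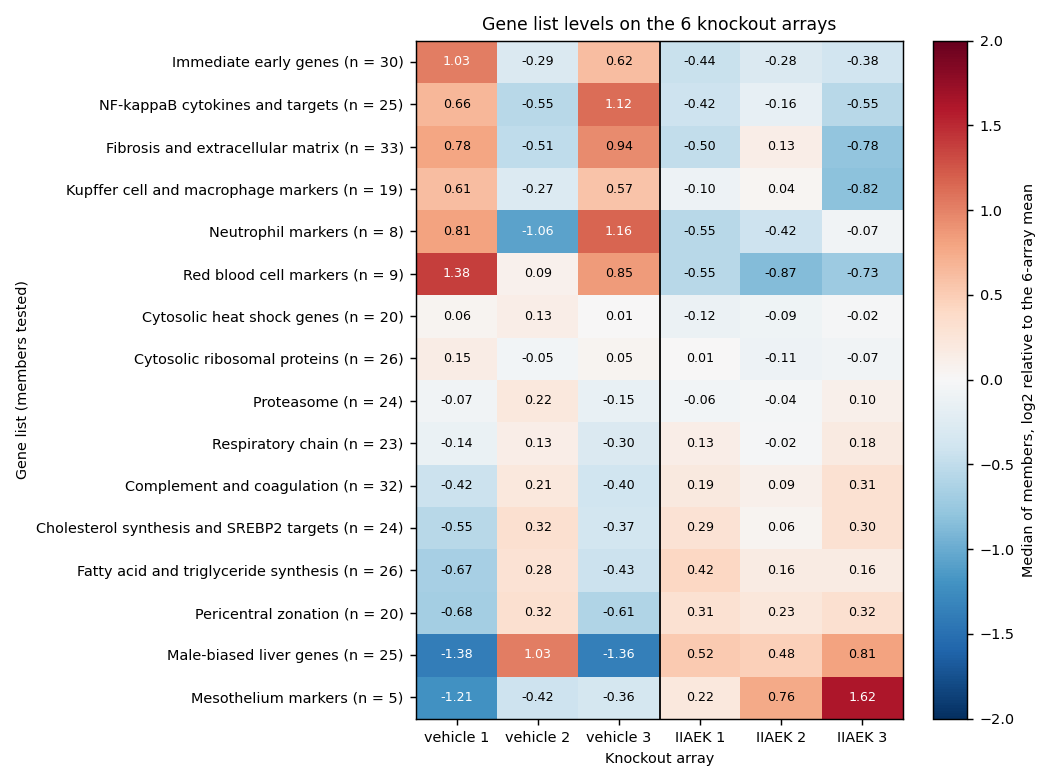
The level of 16 gene lists (rows, with the number of tested members) on each of the 6 knockout arrays (columns) is shown as the median of the members in log2 relative to their mean over the 6 arrays, with red for higher and blue for lower. Vehicle 1 and 3 share their colours in most rows, while vehicle 2 resembles the IIAEK arrays; for male-biased genes it stands at 1.03 against -1.38 and -1.36. Red blood cell markers are higher in all 3 vehicle arrays than in any IIAEK array.

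Immediate early genes, the transcription factors and regulators induced within minutes by many stimuli, were lower in 27 of 30 tested members (median -0.81). 13 of these had an unadjusted p under 0.05 (2.45% of all genes) and 8 did not overlap (5.91%). Maff, a small partner of NRF2 and AP-1 factors, stood at 0.23, -0.55 and -0.06 against -1.69, -1.46 and -0.86. This is a change of -1.21 (SE 0.34) that was -0.79 against vehicle 2. Egr1 (0.99, -1.21 and 1.11 against -1.94, -1.24 and -1.66), Nr4a1 (2.38, 0.30 and 1.42 against -0.72, -0.12 and -0.52) and Myc (0.20, -1.35 and 0.85 against -1.88, -1.43 and -2.39) had vehicle 2 nearer to the IIAEK mice than to the other vehicle mice. Their changes of -1.91 (Egr1), -1.82 (Nr4a1) and -1.80 (Myc) were -0.40, -0.75 and -0.55 against vehicle 2. The median of the list was -1.21 against vehicle 1 and 3 and -0.10 against vehicle 2. On slide 1 it was -1.50 and on slide 2 -0.47, and with IIAEK in wild-type liver it was -0.97. Trp53inp1, a p53 target, stood at 3.83, 1.97 and 2.58 against 1.58, 1.89 and 1.59 (change -1.11, SE 0.45, and -0.28 against vehicle 2), in a list of growth arrest and p53 targets of which 10 of 16 were lower.

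Inflammatory and matrix genes showed a lower median with IIAEK, but not against vehicle 2, which was itself about as low as the IIAEK mice. NF-kappaB genes stood at -0.55 in vehicle 2 and at -0.42, -0.16 and -0.55 in IIAEK mice (median relative to the 6-array mean). NF-kappaB cytokines and targets were lower in 22 of 25 tested members (median -0.73, and 0.15 against vehicle 2). Extracellular matrix genes were lower in 32 of 33 (median -0.75, and 0.14 against vehicle 2), and macrophage markers in 18 of 19 (median -0.66, and 0.06 against vehicle 2). With IIAEK in wild-type liver the medians were lower too, at -0.97 (NF-kappaB), -1.20 (matrix) and -0.62 (macrophage markers). Cd14, the coreceptor for endotoxin and a member of a list of endotoxin sensing with 7 of 15 tested genes higher and 8 lower, stood at 3.01, 0.47 and 2.67 in vehicle and at 0.24, 0.16 and 0.01 in IIAEK mice. Marco, a scavenger receptor of macrophages, stood at 4.84, 2.40 and 5.43 against 1.16, 2.24 and 1.89. Nfkbia, the inhibitor that NF-kappaB induces, stood at 4.72, 4.0 and 4.68 against 3.93, 3.76 and 4.05, and Tgfb2 at -1.82, -3.29 and -1.09 against -3.82, -3.33 and -3.49. In these 4 genes vehicle 2 was the vehicle mouse nearest to the IIAEK mice. The changes of -1.92 (Cd14), -2.46 (Marco), -0.55 (Nfkbia) and -1.48 (Tgfb2) were -0.34, -0.64, -0.08 and -0.26 against vehicle 2. Bulk liver RNA cannot tell fewer cells of a type from less RNA per cell.

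Values for single genes of these lists and of the acute phase differed in how near vehicle 2 came. Postn, periostin, stood at 0.91, 0.55 and 1.52 against 0.07, 0.13 and -0.35 (change -1.04, SE 0.38, and -0.60 against vehicle 2). Il6 was well above background on 3 of 3 vehicle and 0 of 3 IIAEK arrays and at least 1.26-fold lower, and its second probe was above background on none of the 6. Il1a stood at -2.12, -3.18 and -2.19 against -3.48, -3.30 and -3.97 (change -1.09, SE 0.38, and -0.40 against vehicle 2). Among acute phase proteins 11 of 23 were higher and 12 lower. Saa4, the constitutive serum amyloid A of lipoproteins, stood at 2.80, 3.81 and 2.90 against 3.87, 4.18 and 4.64 (change 1.06, SE 0.38, and 0.42 against vehicle 2).

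Cytosolic heat shock genes were lower in 16 of 20 tested members, 6 of them without overlap (5.91% of all genes) and 3 at an unadjusted p under 0.05 (2.45%). The median was small, at -0.21, and it was present against vehicle 2 (-0.26) as against vehicle 1 and 3 (-0.13). Hspa8, the constitutive Hsp70 chaperone, stood at 6.16, 5.48 and 5.69 in vehicle and at 5.05, 5.09 and 5.29 in IIAEK mice (change -0.63, SE 0.22), and its 4 probes gave -0.71 to -0.62. Hsp90aa1, the inducible Hsp90, stood at 4.75, 4.41 and 4.23 against 3.92, 4.05 and 3.97 (change -0.48, SE 0.18). Hspa1a, the inducible Hsp70, stood at -0.80, -2.01 and -1.19 against -2.61, -2.31 and -2.59. The same list had a median of 0.09 with IIAEK in wild-type liver, and 1 of its members had an unadjusted p under 0.05 for the difference between genotypes (1.61% of all genes).

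Aqp8 and Extl1 had the smallest p of the higher genes with an established symbol and a signal above background on all 6 arrays. Aqp8, a water channel of hepatocyte canaliculi and mitochondria, stood at 2.47, 3.11 and 2.72 in vehicle and at 4.30, 3.93 and 4.51 in IIAEK mice, a signal 2.79-fold higher (change 1.48, SE 0.28). It was 1.13 higher than in vehicle 2 alone, 1.82 on slide 1 and 1.31 on slide 2. In wild-type liver Aqp8 was also higher with IIAEK without overlap (change 1.19, SE 0.28). Aqp11, an intracellular aquaporin, stood at 1.63, 2.06 and 1.73 against 2.23, 2.30 and 2.53 (change 0.55, SE 0.19). The groups did not overlap in these 2 of 9 tested aquaporins (9.53% of all genes). Aqp3, a channel for water and glycerol, was above background on 3 of 3 vehicle and 0 of 3 IIAEK arrays and at least 1.57-fold lower.

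Extl1, an enzyme that elongates heparan sulfate chains, stood at -3.21, -2.76 and -2.91 in vehicle and at -1.67, -1.65 and -1.46 in IIAEK mice. The groups were 1.08 log2 units apart at their nearest arrays, and the change was 1.36 (SE 0.25), with 1.52 from its second probe. In wild-type liver the change of Extl1 was 0.12 (SE 0.25). Other heparan sulfate genes went both ways, 13 of 20 tested higher and 7 lower. Hs6st1, a 6-O-sulfotransferase, stood at 4.17, 4.38 and 4.32 against 4.79, 4.60 and 4.84. Hs3st3a1, a 3-O-sulfotransferase (-2.99, -3.46 and -3.39 against -3.87, -3.65 and -3.91), and the proteoglycan Sdc1 (3.21, 2.54 and 2.60 against 2.30, 2.28 and 2.32) were lower without overlap.

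Sterol synthesis genes had a higher median with IIAEK, but not against vehicle 2, which was itself about as high as the IIAEK mice. Of 24 tested genes of cholesterol synthesis and SREBP2, 19 were higher and 5 lower (median 0.47), with 5 higher at an unadjusted p under 0.05 (4.01% of all genes) and 3 higher without overlap (9.53%). Against vehicle 2 the median was -0.22, and with IIAEK in wild-type liver it was 0.55. Fdft1, squalene synthase (1.07, 2.40 and 1.68 against 2.59, 2.41 and 2.62), Insig1, which restrains SREBP processing (-2.71, -1.32 and -1.84 against -0.85, -1.26 and -1.12), and Sc5d (3.56, 4.28 and 3.76 against 4.63, 4.24 and 4.73) had vehicle 2 beside the IIAEK mice. Their changes of 0.82, 0.88 and 0.67 were 0.14, 0.24 and 0.25 against vehicle 2.

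Por, cytochrome P450 reductase, which passes electrons to microsomal P450 enzymes and to sterol synthesis, was lower without overlap and belongs to the list of drug metabolism described further on. It stood at 6.84, 6.51 and 6.54 in vehicle and at 5.43, 5.80 and 5.80 in IIAEK mice, a change of -0.95 (SE 0.24) that was -0.84 against vehicle 2.

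Genes of bile acid synthesis and sterol export, the routes by which the liver disposes of cholesterol, moved little or with wide spread. Cyp7a1, which sets the rate of bile acid synthesis, ranged from -5.66 to -0.55 in vehicle (-0.55, -5.66 and -3.47) and stood at -4.60, -2.65 and -2.99 in IIAEK mice. Its change of -0.18 (SE 1.27, limma adjusted p = 0.958) turned to 2.24 against vehicle 2 and to 1.74 on slide 2. Cyp8b1, the 12-alpha-hydroxylase, stood at -7.82, -3.09 and -8.07 against -3.08, -2.95 and -2.53. It was above background on 1 of 3 vehicle arrays (vehicle 2) and 3 of 3 IIAEK arrays. Cyp27a1 overlapped (0.48, 1.15 and 0.09 against 0.99, 0.94 and 0.65, adjusted p = 0.746 in limma), as did Nr0b2, the bile acid-induced repressor (0.27, 0.76 and 0.11 against 0.48, -0.20 and 0.30, adjusted p = 0.806 in limma). The exporters Abcg5 (6.75, 7.06 and 6.88 against 7.18, 7.08 and 7.29) and Abcg8 (4.16, 4.92 and 4.20 against 5.24, 4.95 and 5.20) were higher without overlap, by 0.28 (SE 0.16) and 0.70 (SE 0.39). In both, vehicle 2 was the vehicle mouse nearest to the IIAEK mice. Abca1 stood at 3.79, 3.57 and 4.16 against 3.32, 3.53 and 3.60. Npc1l1 was above background on 0 of the 6 arrays.

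Apolipoprotein and lipoprotein assembly genes were higher in 19 of 20 tested members, with a small median of 0.29 (0.11 against vehicle 2), and 3 were higher without overlap (9.53% of all genes). Apoa1 stood at 6.71, 6.97 and 6.53 against 7.02, 7.05 and 6.80 (limma adjusted p = 0.693), and Apob at 6.09, 6.47 and 6.35 against 6.58, 6.44 and 6.67. Angptl8, a feeding-induced inhibitor of lipoprotein lipase, stood at 2.99, 3.79 and 4.07 against 4.72, 4.11 and 4.55 (change 0.84, SE 0.30). It was 0.67 higher than in vehicle 2.

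Fatty acid synthesis was higher in 23 of 26 tested members (median 0.52), 5 of them at an unadjusted p under 0.05 (4.01% of all genes) and 3 without overlap (9.53%), with a median of -0.05 against vehicle 2. With IIAEK in wild-type liver the median was 0.62. Aacs, which makes acetoacetyl-CoA for lipid synthesis, stood at -0.34, 1.32 and 0.01 in vehicle and at 1.98, 1.54 and 2.57 in IIAEK mice (change 1.70, SE 0.50, and 0.71 against vehicle 2). Thrsp, a lipogenic regulator, stood at -1.40, 1.63 and -2.01 against 2.04, 1.13 and 2.20, and the desaturase Fads1 at 1.22, 2.33 and 1.56 against 2.62, 2.66 and 2.25. Srebf1, the transcription factor of this pathway, stood at 3.77, 5.14 and 4.97 against 5.50, 5.32 and 5.56. In Thrsp and Fads1 vehicle 2 lay within the IIAEK range, and the changes of 2.38 (Thrsp), 0.81 (Fads1) and 0.83 (Srebf1) were 0.16, 0.18 and 0.32 against vehicle 2.

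Genes of fatty acid oxidation were lower in single members, with 19 of 34 tested PPARalpha targets higher and 15 lower (median 0.09). 4 were lower without overlap (5.91% of all genes), and 4 were lower at an unadjusted p under 0.05 (2.45%). The median was 0.28 against vehicle 1 and 3, -0.36 against vehicle 2 and 0.57 with IIAEK in wild-type liver. For the difference between genotypes 5 members had an unadjusted p under 0.05 in limma (1.61% of all genes). Acot2, a mitochondrial acyl-CoA thioesterase, stood at 2.63, 2.01 and 2.57 against 0.72, 1.31 and 0.87 (change -1.44, SE 0.38, and -1.05 against vehicle 2). Cidec, a lipid droplet protein, stood at 3.98, 2.55 and 3.87 against 0.53, 2.30 and 1.11, and Ehhadh, the peroxisomal bifunctional enzyme, at 6.19, 7.10 and 6.02 against 5.36, 5.78 and 5.42. Ehhadh was lower by more against vehicle 2 (-1.58) than against the group (-0.92, SE 0.39).

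Among CAR and PXR genes of drug metabolism 12 of 22 tested were higher and 10 lower (median 0.08, and -0.43 against vehicle 2). 5 were lower without overlap (5.91% of all genes). In wild-type liver the median of this list was 0.83 with IIAEK. For the difference between genotypes 7 of its members had an unadjusted p under 0.05 in limma (1.61% of all genes). Cyp2c55 stood at 0.23, 0.75 and 2.13 in vehicle and at -0.55, -0.34 and -1.20 in IIAEK mice (change -1.73, SE 0.72). Of 21 tested glutathione S-transferases 14 were higher and 7 lower. Gstt2, of the theta class, stood at 3.38, 3.03 and 3.34 against 2.38, 2.68 and 2.64 (change -0.68, SE 0.22).

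**Figure D3:**
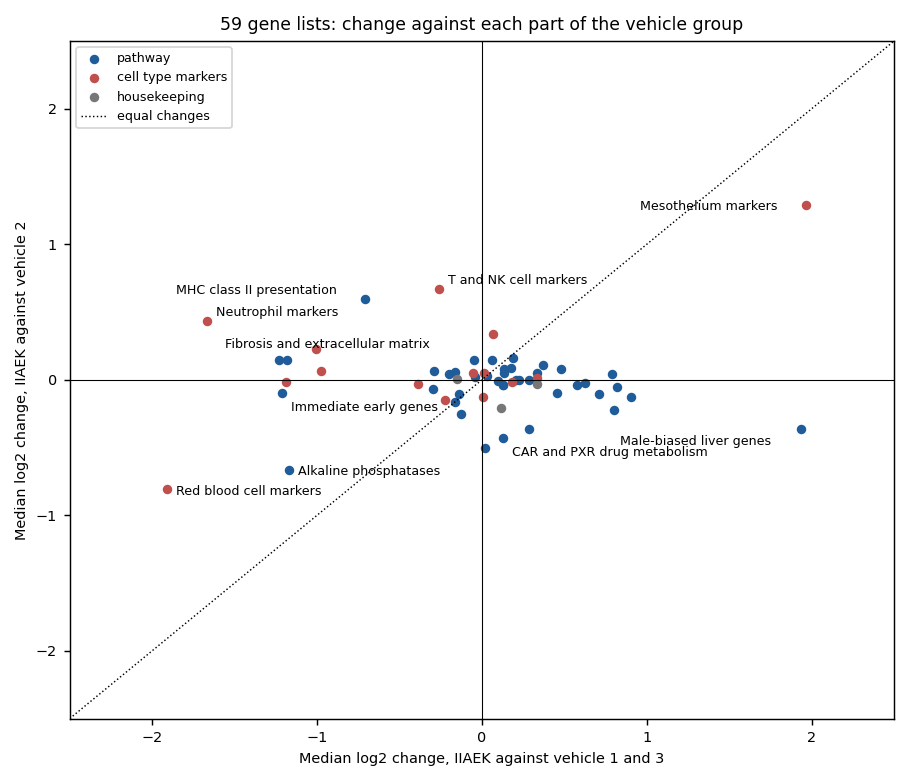
Each point is 1 of 59 gene lists: the median log2 change of its members with IIAEK against vehicle 1 and 3 (x axis) and against vehicle 2 (y axis), coloured by kind, with a dotted line where both are equal. Most lists lie near 0 on the y axis whatever their x value. Red blood cell markers (-1.91 and -0.81) and mesothelium markers (1.96 and 1.29) keep their direction on both axes, and male-biased genes (1.93 and -0.37) do not.

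Plasma proteins of complement and coagulation, made by hepatocytes, were higher in 30 of 32 tested members (median 0.38, and -0.02 against vehicle 2), 5 of them without overlap (9.53% of all genes). With IIAEK in wild-type liver the median was 0.42. Mbl2, the mannose-binding lectin, stood at 6.23, 7.28 and 6.49 in vehicle and at 7.51, 7.60 and 7.87 in IIAEK mice (change 1.0, SE 0.26, and 0.38 against vehicle 2). Plg, plasminogen, stood at 0.81, 1.37 and 0.99 against 1.80, 1.49 and 1.45.

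Globins and most other red blood cell markers were lower with IIAEK than in each of the 3 vehicle mice. Of 9 tested markers 7 were lower, each without overlap (5.91% of all genes) and 5 at an unadjusted p under 0.05 (2.45%). The list stood at 1.38, 0.09 and 0.85 in vehicle 1 to 3 and at -0.55, -0.87 and -0.73 in IIAEK mice, with a median change of -1.60, of -1.91 against vehicle 1 and 3 and of -0.81 against vehicle 2. Hba-a1, an alpha globin whose probes cannot be told from those of its near-identical copy Hba-a2, stood at 8.42, 7.39 and 8.18 against 6.79, 6.47 and 6.76. Hbb-b2, a beta globin, stood at 4.32, 2.99 and 3.81 against 2.30, 1.80 and 2.17. In wild-type liver the median of this list was 0.01 with IIAEK, and none of its members had an unadjusted p under 0.05 for the difference between genotypes. Tfrc, the transferrin receptor, stood at 0.87, -0.85 and 0.10 against -1.13, -1.27 and -1.40, a change of -1.31 (SE 0.39) that was -0.41 against vehicle 2. The blood content of the livers was not measured, and its part in these values was not tested.

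Mesothelium markers, of the cell layer that covers the organ, were higher in 3 of 5 tested members and lower in the other 2, with a lowest change of -0.40. The 3 higher members follow. Msln, mesothelin, stood at -3.05, -2.26 and -2.82 in vehicle and at -1.62, -1.07 and -0.21 in IIAEK mice (change 1.74, SE 0.54). Upk3b and Upk1b were above background on 0 of 3 vehicle and 3 of 3 IIAEK arrays and at least 1.87-fold and 2.19-fold higher. The second probe of Upk1b was above background on 0 of the 6 arrays. The list stood at -1.21, -0.42 and -0.36 in vehicle and at 0.22, 0.76 and 1.62 in IIAEK mice, and the amount of capsule in each piece of liver was not measured.

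Other genes were apart between the groups and have less settled roles in liver. Alpl, the tissue-nonspecific alkaline phosphatase and the 1 tested member of its family, stood at 1.77, 1.30 and 1.85 in vehicle and at 0.36, 0.81 and 0.75 in IIAEK mice (change -1.0, SE 0.28, -0.67 against vehicle 2, -1.41 on slide 1 and -0.80 on slide 2). Il17rb, a receptor for IL-25, stood at 0.05, 0.02 and 0.08 against -1.26, -1.06 and -1.08 (change -1.18, SE 0.27), the same by its second probe (-1.32). Rgs3, a regulator of G-protein signalling, stood at 0.37, 0.73 and 0.60 against 1.29, 1.26 and 1.29 (change 0.71, SE 0.17), with 0.20 to 0.71 over its 4 probes. In wild-type liver the change of Rgs3 was larger, at 1.28 (SE 0.17), also without overlap. Lrrc56 stood at -0.57, -0.31 and -0.37 against 0.37, 0.33 and 0.52. The transcription factor genes Spdef (-1.51, -3.13 and -2.45 against -4.18, -3.57 and -4.10) and Rhox5 (-2.09, -1.34 and -2.56 against -3.39, -3.56 and -3.44) were lower without overlap.

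Probes of 1 gene disagreed for Tango6 and Tll1. Tango6 was lower by its brightest probe (2.86, 1.87 and 2.33 against 1.04, 1.38 and 1.15, change -1.16) and 0.27 by the other, and Tll1 was higher by its brightest probe (-5.08, -5.19 and -5.03 against -3.99, -4.36 and -4.49, change 0.82) and below background by the other.

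Some of the largest changes came with wide spread among the vehicle mice. H19, an imprinted fetal RNA, stood at 3.38, -1.70 and 4.60 in vehicle and at -3.76, -3.88 and -4.47 in IIAEK mice (change -6.13, SE 2.13, and -2.34 against vehicle 2). Tff3, a trefoil peptide, stood at 3.41, 1.44 and 1.69 against -0.39, 0.00 and -0.90 (change -2.61, SE 0.86, and -1.87 against vehicle 2). Myo7b, an unconventional myosin of brush borders, was above background on 3 of 3 vehicle and 0 of 3 IIAEK arrays and at least 6.92-fold lower. In these genes the groups did not overlap, although vehicle 2 was the vehicle mouse nearest to the IIAEK mice.

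Genes in 1 stretch of chromosome 2 gave the widest separations of all. The stretch was noticed, and Spata5l1, Dtd1 and 1700054M17Rik were chosen for it, after the values were seen. Of 15322 tested genes with a symbol and a chromosome, 24 had groups more than 1 log2 unit apart at their nearest arrays. On chromosome 2, which holds 1189 of the genes, there were 7 of these. The stretch from 1700054M17Rik to Rbbp9 held 6 of the 7, and 1 lay on the rest of the chromosome. Rbbp9, a serine hydrolase that binds the retinoblastoma protein, stood at -3.91, -3.35 and -3.81 in vehicle and at 0.54, 0.42 and 0.75 in IIAEK mice. That is a signal 19.1-fold higher (change 4.26, SE 1.0). It was the only gene that limma called when slide 2 (adjusted p = 0.0133) or the 6 knockout arrays (adjusted p = 0.00632) were fitted alone, and its adjusted p ran up to 1.0 over the alternatives.

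Other genes of the stretch shared the pattern. In the order of tested genes on chromosome 2, 1700054M17Rik is number 607, Spata5l1 number 692 and Rbbp9 number 835. Jmjd7, a lysine hydroxylase, stood at -4.75, -3.75 and -3.69 against -1.98, -1.91 and -1.88. Capn3, a calpain, stood at -4.55, -4.66 and -4.05 against -2.19, -2.44 and -2.45, and Spata5l1, an ATPase gene, at -4.40, -4.35 and -4.20 against -2.65, -2.36 and -2.33. Disp2 and 1700054M17Rik were above background on 0 of 3 vehicle and 3 of 3 IIAEK arrays, at least 6.02-fold and 2.47-fold higher. Smaller gaps were seen in Lcmt2 (0.25, 0.72 and 0.51 against 1.23, 1.20 and 1.26) and Inafm2 (-0.67, -0.54 and -0.60 against 0.08, 0.01 and -0.03), and Tmem87a was lower (-3.05, -3.57 and -3.13 against -3.83, -4.07 and -4.17). From 1700054M17Rik to Spata5l1 in chromosome order, 34 of 86 tested genes did not overlap between the groups (39.5%), 27 higher and 7 lower. From 1700054M17Rik to Rbbp9 it was 65 of 229 (28.4%). On the rest of chromosome 2 it was 125 of 960 (13%), and on all other chromosomes together 15.7%. The ends of both spans were picked after the values were seen, so their shares follow in part from that choice.

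In the wild type Rbbp9 did not follow treatment. It stood at -2.88, 0.45 and 0.06 in wild-type vehicle 1 to 3 and at -2.96, 0.69 and 0.71 in wild-type IIAEK 1 to 3. It was thus low in replicate 1 of both treatments and high in the other 4 mice. Spata5l1 (-4.40, -2.52 and -2.41 in wild-type vehicle, -4.13, -2.18 and -2.25 in wild-type IIAEK) and Capn3 (-5.86, -3.13 and -2.79, then -5.17, -1.94 and -2.28) split the same mice. In the wild type this split is also that of the slides, replicate 1 on slide 1 and replicates 2 and 3 on slide 2. In the knockout, vehicle 2 and 3 were low on slide 2 and IIAEK 1 was high on slide 1. Lcmt2 was higher with IIAEK in the wild type too, without overlap (0.52, 0.17 and 0.53 against 0.71, 1.17 and 1.12). Of the 20 genes whose values over the 12 arrays were most like those of Rbbp9 (Pearson r of 0.768 to 0.982 among 15323 genes with a symbol, over arrays that share groups and slides), 15 were on chromosome 2.

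The probes of a gene did not carry the pattern equally. Of the 10 genes plotted, 6 had more than 1 probe, and in 5 of these the changes of the probes were more than 0.4 apart. The second probe of Rbbp9 stood at -2.67, -2.45 and -2.98 in vehicle and at -2.38, -2.48 and -2.56 in IIAEK mice, a change of 0.22 with overlap, where the first gave 4.26. For Spata5l1 the second probe gave 0.11, for Tmem87a 0.10 and for Dtd1 -0.09, where the first gave 1.87, -0.77 and 0.61. DNA of these mice was not analysed here, and whether the mice differed in this region of chromosome 2 was not tested.

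**Figure D4:**
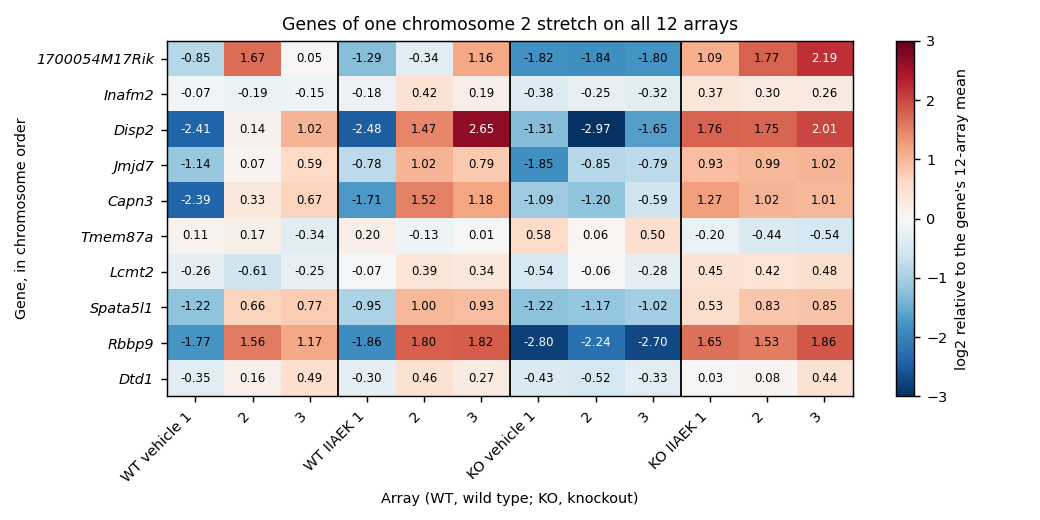
Rows are 10 genes of chromosome 2 in chromosome order and columns the 12 arrays, with log2 values relative to each gene's mean over the 12 arrays (red higher, blue lower). The 3 knockout vehicle arrays are low and the 3 knockout IIAEK arrays high for all but Tmem87a, which is the reverse. Rbbp9 is also low in wild-type vehicle 1 and wild-type IIAEK 1.

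The difference of the IIAEK effects, knockout minus wild type, addresses whether the response depends on IAP. The limma fit called 0 of 26397 genes (0%), and 426 had an unadjusted p under 0.05 (1.61%). The smallest p belonged to Gadd45g, which stood at 3.27, 3.54 and 3.95 in wild-type vehicle and at 4.95, 4.70 and 5.08 in wild-type IIAEK mice, while in the knockout IIAEK mice lay below vehicle. The changes of 1.32 (SE 0.23) in wild type and -1.04 (SE 0.23) in the knockout differed by -2.36 (SE 0.32, limma adjusted p = 0.489). Tagln, an actin-binding protein of contractile cells, stood at 2.79, 2.56 and 2.72 in knockout vehicle and at 2.80, 2.53 and 2.62 in knockout IIAEK mice. Its change was -0.04 (SE 0.15, limma adjusted p = 0.92) in the knockout and -1.43 (SE 0.15, limma adjusted p = 0.0318) in wild type. The difference was 1.39 (adjusted p = 0.514 in limma).

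Cyp3a11 and Cyp3a16, PXR-regulated drug-metabolising enzymes whose probes may share signal with other members of the Cyp3a family, were lower in knockout liver and higher in wild-type liver with IIAEK. Cyp3a11 stood at 7.44, 7.71 and 7.35 in knockout vehicle and at 7.21, 7.01 and 6.77 in knockout IIAEK mice, and at 6.63, 7.31 and 6.63 against 8.27, 7.45 and 7.95 in wild type. Cpt1b, the muscle-type carnitine palmitoyltransferase, stood at -1.46, -1.17 and -1.92 against -2.01, -1.94 and -2.19 in the knockout and at -1.73, -2.65 and -2.08 against -1.61, -1.18 and -1.51 in wild type. The differences between genotypes were -1.54 (SE 0.35) for Cyp3a11, -1.45 (SE 0.35) for Cyp3a16 and -1.25 (SE 0.36) for Cpt1b, each with a limma adjusted p of 1.0. Ces1g, a carboxylesterase, was level in the knockout (-0.02, SE 0.19, limma adjusted p = 0.968) and 0.92 in wild type. In the other direction stood the cilia genes Zmynd10 (0.48 in the knockout, -0.94 in wild type) and Cfap54 (0.87 and -0.58), Fcgbp (0.69, limma adjusted p = 0.675, and -2.39) and the long noncoding RNA Lncbate1 (0.41 and -1.18).

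**Figure D5:**
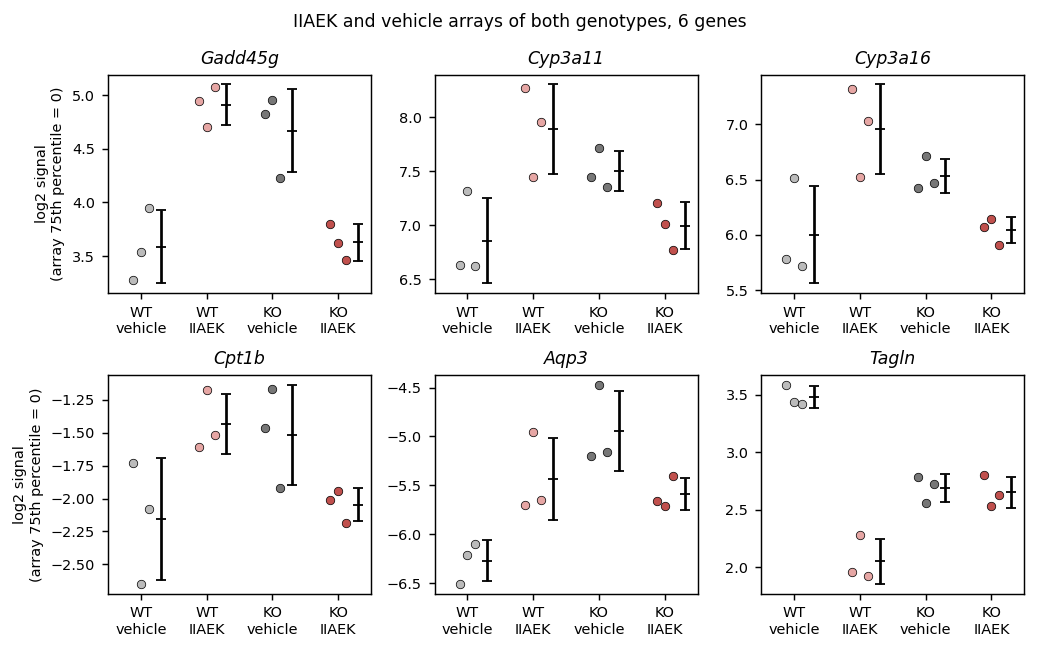
The log2 signal of 6 genes (y axis, relative to the array's 75th percentile, a separate scale per panel) is plotted for every mouse of the 4 groups (WT, wild type; KO, knockout), with mean and SD. Gadd45g goes from 3.27 to 3.95 up to 4.70 to 5.08 in wild type and from 4.23 to 4.95 down to 3.46 to 3.80 in the knockout; Tagln differs between the wild-type groups and overlaps between the knockout groups.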

How the data were processed

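Total liver RNA, labelled with Cy3, was hybridised to 12 one-colour Agilent arrays, 1 per mouse. Intensities and flags were extracted by the authors with Agilent Feature Extraction 10.7.3.1 on a design annotated to mm9, per the file headers. The deposited series table holds log2 values that match the scanner intensities centred per probe (r of 0.9997 or more on each array, direction the same) and served as an alternative.

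The 59305 non-control spots were used, without non-uniform spots; 0 were saturated. Processed signals were taken as log2 minus the array's 75th percentile. Spots of a probe were averaged, and a gene took its brightest complete probe. A gene was tested where at least 1 of the 4 groups had it well above background in each of its 3 mice (26397 genes, 341 of them only through wild-type arrays). limma 3.58.1 in R 4.3.3 fitted 1 mean per group to all 12 arrays, with Benjamini-Hochberg adjustment over all genes. The script was tested on simulated data. Probes were named through RefSeq, which gave a symbol to 32994 of 56605, and other coordinates of that build are not printed.

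Genes named were, in each direction, the 10 with the smallest p and the 6 with the largest change at an unadjusted p under 0.05, both among genes well above background on all 6 knockout arrays with an established RefSeq symbol (no predicted or clone names), up to 5 above background in 1 group only, up to 4 per list by p, 16 genes of phosphatases and sterol handling, and the 5 with the smallest p for the difference between genotypes in each direction, limited likewise. The members and lists were chosen with earlier results of these data known. Alternatives were normexp background correction, quantile normalization, the series table, 3 other filters, the mean over probes, slide and replicate blocks, slide 2 alone, the knockout arrays alone, trend and robust options, array weights, leaving out each array and, chosen after seeing the data, leaving out knockout vehicle 1 and 3. The number of arrays limits the precision. A few genes that the rule names are not reported here.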

Additional observations from a re-analysis of the deposited data

Results flagged for a closer look

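For 7 of the 100 genes named in the text the IIAEK effect in the knockout and in the wild type went in opposite directions with all arrays of each group apart, and the difference had an unadjusted p under 0.05 in limma, while none passed adjustment. The difference, knockout minus wild type, was -2.36 for Gadd45g (limma adjusted p = 0.489). It was -1.48 for Aqp3, -1.25 for Cpt1b, -1.54 for Cyp3a11 and -1.45 for Cyp3a16. It was 1.42 for Zmynd10 and 1.45 for Cfap54. In each of the last 6 the limma adjusted p was 1.0. The values of Aqp3 were below background in knockout IIAEK mice, in wild-type vehicle mice and in wild-type IIAEK 1 and 3. Among all genes tested, 36 (0.136%) were apart in opposite directions in the 2 genotypes and 513 (1.94%) in the same direction. Some of the 100 genes, Zmynd10 and Cfap54 among them, were named for a small p of this same difference. The count of 7 and its unadjusted p thus follow in part from that choice and cannot be set against the share over all genes.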

How the results depend on the processing

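The count of 0 genes called by limma (1706 at an unadjusted p under 0.05) became 1 with no filter, 1 on slide 2 alone, 1 with only the 6 knockout arrays and 871 with array weights (508 higher, 363 lower), and ran from 0 to 6 when 1 array was left out. Without wild-type vehicle 1 it was 6, among them Extl1 and Il17rb, and without knockout vehicle 2 it was 1. It was 0 under the other alternatives. Calls of the difference between genotypes ran from 0 to 1 when 1 array was left out, with 1 without knockout vehicle 2. Genes at an unadjusted p under 0.05 were 614 without knockout vehicle 1, 5327 without knockout vehicle 2, 835 without knockout vehicle 3, 3583 without wild-type vehicle 1 and 290 without both knockout vehicle 1 and 3. Same-numbered knockout mice deviated from their group means with r of 0.146, -0.416 and -0.347, so the numbers were not taken to pair the mice (number 1 also marks slide 1). The replicate block gave 0 calls and 1442 genes at an unadjusted p under 0.05.

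Leaving out knockout vehicle 1 and 3 turned 7 of 100 genes (Cyp7a1 2.24, Cyp27a1 -0.28, Apoa1 -0.020, Hsd3b5 -1.23, Slco1a1 -0.81, Tagln 0.094, Ces1g 0.075) and the sign of 31 of 59 list medians. Slide 2 alone turned Cyp7a1 (1.74) and Ces1g (0.066). When 1 array was left out, Cyp7a1 ran from -1.40 to 1.15, Nr0b2 from -0.33 to 0.012, Tagln from -0.11 to 0.021 and Ces1g from -0.12 to 0.10. The cause was not tested. The median change of all genes was 0.123 without a filter and 0.05 as reported. Genes near background have only a bound.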
